A study of Homo sapiens with 2 samples.

Results

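Over the CpGs read in both libraries, 68 genomic tiles had little methylation in the negative control library and high methylation in the library with targeted DNMT3A. A tile was a non-overlapping window of 1 kb on chromosomes 1 to 22, counted from the first base of each chromosome. Members were chosen by the measured methylation levels themselves: at most 10% of the reads methylated in Neg and at least 80% in dCas9+3A+HOXA5, over CpGs read in both libraries. A tile needed at least 10 such CpGs and at least 20 summed reads in each library. Of 405867 tiles with this coverage, 68 met the rule (0.0168%), and of the 22588 tiles at or under 10% in Neg they made up 0.301% (95% Wilson interval 0.238 to 0.381%). The opposite change, from at least 80% to at most 10%, was seen in 2 of 197712 tiles (0.00101%). Over all autosomal CpGs 64.0% of reads were methylated in Neg and 70.3% in the other library. Because both levels chose the members and each group held 1 library, levels are given here as a description with no test, and all intervals cover counting error only.

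The data are whole-genome bisulfite sequencing of HEK293T cells, a human embryonic kidney line. Neg was 1 library that the study describes as cells without transduction. The dCas9+3A+HOXA5 library came from cells transduced with lentiviral vectors for nuclease-dead Cas9 with SunTag epitopes, an antibody fragment fused to DNMT3A, and a guide RNA against HOXA5; the transduced cells were sorted for fluorescence. The same treatment text, with 30 days of infection, stands on both samples, so the title alone separates them. What the guide, the constructs, the sorting and the culture each contribute to a difference between these 2 libraries cannot be told apart. The Neg library held 86000851 reads at autosomal CpGs, a mean of 3.81 per listed CpG, and dCas9+3A+HOXA5 held 44834966, a mean of 2.897.

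DNMT3A is a de novo DNA methyltransferase, which adds methyl groups to cytosines that were unmethylated on both strands. In most cell types the bulk of CpGs is methylated, while CpG islands at gene starts and broad stretches around developmental regulator genes stay unmethylated. The HOX genes, which specify position along the body axis, lie in 4 clusters.

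Reference sequences are shown here for the guide site and for 4 members, so that the CpGs behind the levels can be seen. Each is on the plus strand of GRCh37, which has the coordinates of hg19, and the capitals mark the PAM after the guide site and the CpGs in the tiles. The coordinates of the guide site are those of its 20 bases, without the PAM. From each tile the 300 bases with the most CpGs outside annotated UTRs are given. The tiles are the member nearest the guide (HOXA5), the one with the most reads in its shallower library (HOXA11), the one with the largest difference (NR2F1), and the deepest one without a gene start within 50 kb (in an intron of AUTS2).
HOXA5 guide site, chr7:27182884-27182903, and its PAM: ggctgtcgctgccgggcgagGGG
HOXA5 tile, chr7:27181643-27181942: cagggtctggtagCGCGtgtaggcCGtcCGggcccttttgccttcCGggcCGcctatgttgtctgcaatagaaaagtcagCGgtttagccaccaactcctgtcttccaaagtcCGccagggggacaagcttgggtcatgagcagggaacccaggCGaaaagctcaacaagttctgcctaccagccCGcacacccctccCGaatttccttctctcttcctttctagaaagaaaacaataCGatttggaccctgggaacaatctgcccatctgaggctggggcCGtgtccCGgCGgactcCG
HOXA11 tile, chr7:27227566-27227865: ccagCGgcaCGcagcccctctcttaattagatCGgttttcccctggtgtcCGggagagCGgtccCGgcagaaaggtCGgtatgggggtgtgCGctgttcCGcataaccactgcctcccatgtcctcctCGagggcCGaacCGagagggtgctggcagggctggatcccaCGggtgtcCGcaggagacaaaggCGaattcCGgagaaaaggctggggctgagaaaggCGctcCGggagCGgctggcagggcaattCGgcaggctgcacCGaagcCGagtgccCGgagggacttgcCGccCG
NR2F1 tile, chr5:92938048-92938347: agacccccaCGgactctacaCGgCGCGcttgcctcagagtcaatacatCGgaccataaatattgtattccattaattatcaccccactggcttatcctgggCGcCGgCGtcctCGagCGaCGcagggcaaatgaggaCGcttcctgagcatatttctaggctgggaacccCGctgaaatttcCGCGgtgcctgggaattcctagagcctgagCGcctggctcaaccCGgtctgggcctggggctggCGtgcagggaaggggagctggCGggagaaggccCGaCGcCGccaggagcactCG
AUTS2 tile, chr7:70096248-70096547: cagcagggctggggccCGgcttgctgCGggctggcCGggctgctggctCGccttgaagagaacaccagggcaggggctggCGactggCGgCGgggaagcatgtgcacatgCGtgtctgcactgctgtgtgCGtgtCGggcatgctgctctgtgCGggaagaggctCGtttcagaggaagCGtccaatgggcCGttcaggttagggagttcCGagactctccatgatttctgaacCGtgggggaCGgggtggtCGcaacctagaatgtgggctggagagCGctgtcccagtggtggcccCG

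The HOXA5 stretch holds 16 CpGs, the HOXA11 stretch 25, the NR2F1 stretch 23 and the AUTS2 stretch 20. The HOXA5 stretch had 4 of 61 methylated reads in Neg (6.56%) and 43 of 55 in dCas9+3A+HOXA5 (78.2%), which is under the limit set for whole tiles. In the HOXA11 stretch, 5 of 140 reads were methylated in Neg against 108 of 115 in dCas9+3A+HOXA5. The NR2F1 stretch had 0 of 32 and 17 of 18. The AUTS2 stretch had 2 of 53 methylated reads in Neg and 93 of 100 in dCas9+3A+HOXA5. The best match next to an NGG within any member had 7 mismatches to the 20 bases of the guide. Only the bases of each tile were searched, so sites just outside a tile were not counted. Among the other 22520 tiles low in Neg, 229 held a site with at most 5 mismatches (1.02%) and 32 one with at most 4 (0.142%). These include the tile of the guide site itself, with 0 mismatches, which was not a member. No member held such a site, but the 95% Wilson interval for members reached 5.35% for either limit. Both shares lie within it, so these counts cannot show whether members differed from the other low tiles.

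Summed over the members, 259 of 5157 reads were methylated in Neg (5.02%) and 3716 of 4131 in dCas9+3A+HOXA5 (89.95%). The other tiles low in Neg had 3.09% and 4.64%. Thus most unmethylated tiles stayed low: of all 22588, 1621 were at or above 20% in dCas9+3A+HOXA5, 263 at or above 50%, 109 at or above 70% and 35 at or above 90%. No gap separated the members from the tiles below them, since 41 low tiles lay between 70 and 80%.

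**Figure D1:**
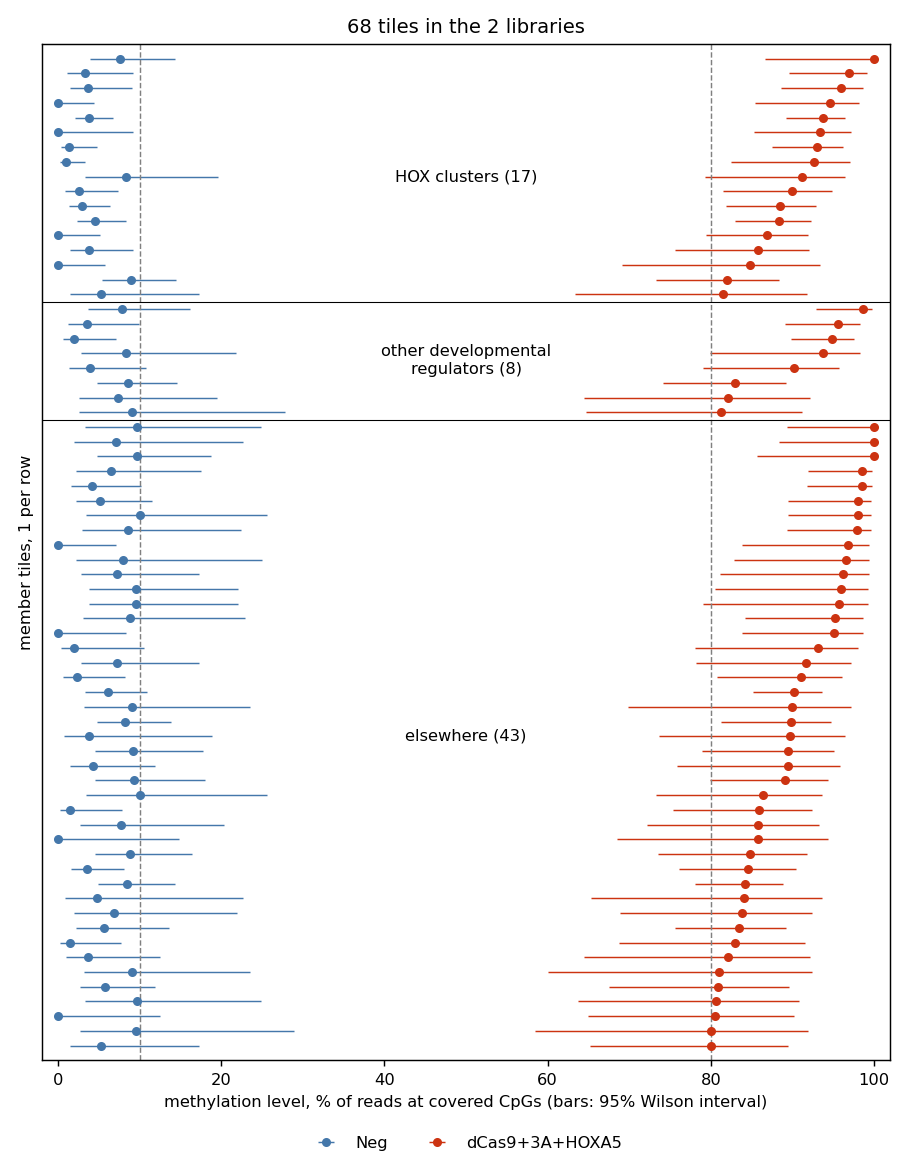
Methylation level (%) of each of the 68 members in either library, 1 tile per row, with 95% Wilson intervals as bars and the limits of the rule as dashed lines. The 17 members in the HOX clusters stand at the top, the 8 near other developmental regulators in the middle and the other 43 below, and in 53 of the 68, 7 of them in the HOX clusters, an interval reaches or crosses a limit.

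Nearly all single CpGs of the members differed in the direction of their tile. This largely follows from the rule, because the summed reads of these same CpGs chose the members. In the other low tiles 50418 of 807782 CpGs were higher in dCas9+3A+HOXA5 and 47997 lower. Of 1367 CpGs read in both libraries, 1250 had a higher level in dCas9+3A+HOXA5 and 12 a lower one. No methylated read was found at 84.6% of them in Neg, and in dCas9+3A+HOXA5 80.5% had only methylated reads. With 3 or more reads in both libraries, 438 of 443 CpGs were higher in dCas9+3A+HOXA5. CpGs of the same tiles that were read in only 1 library did not enter the rule. They lie in the chosen tiles, where neighbouring CpGs can share fragments, so their levels are not independent of the rule. They had 126 of 1216 reads methylated when read in Neg alone (10.4%) and 210 of 259 when read in dCas9+3A+HOXA5 alone (81.1%), so on them the Neg level was higher than on the CpGs that chose the members. In the other low tiles such CpGs had 4.38% and 5.07%. With all CpGs that Neg covered, 13 members were above 10% in Neg, at 10.8 to 40.4%.

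The members were covered at low depth. The number of covered CpGs ran from 10 to 70 with a median of 15, and the summed reads had medians of 65.5 in Neg against 46 in dCas9+3A+HOXA5. In dCas9+3A+HOXA5 a member had 1.09 to 5.75 reads per covered CpG, with a median of 2.91, and 10 members had fewer than 2. Neighbouring CpGs share fragments, so that the summed reads of a tile are not independent and come from fewer DNA molecules than their number. The depth of dCas9+3A+HOXA5 relative to Neg, scaled by the library totals, had a median of 1.42 in members and 1.46 in the other low tiles. Tile reads were those at CpGs read in both libraries, while the totals covered all autosomal CpGs. A ratio above 1 therefore need not mean greater relative depth. CpGs with evidence of a C-to-T variant on the opposite strand made up 0.764% (Neg) and 1.09% (dCas9+3A+HOXA5) of the members' tested CpGs, against 0.929% and 0.930% in the other low tiles.

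The HOX clusters held 17 of the 68 members. Of the 104 low tiles in the 4 clusters 16.3% were members, against 0.227% of the 22484 low tiles elsewhere. HOXA held 9 of its 39 low tiles, HOXB 4 of 28, HOXC 2 of 22 and HOXD 2 of 15. In dCas9+3A+HOXA5 33 of the 104 reached 50%, the 17 members included, while 44 were at or under 10%. Outside the clusters 230 of 22484 low tiles reached 50%, the 51 members included, and 18530 were at or under 10%. With 2-kb tiles the HOX clusters held 8 of 57 members, and over CpGs with 5 or more reads 5 of 19. The median level of low tiles in dCas9+3A+HOXA5 was 37.6% in HOXA, 13.4% in HOXB, 15.5% in HOXC and 6.25% in HOXD, and 2.68% outside.

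The guide site lies in HOXA5, and 9 members, all those of the HOXA cluster, lay within 50 kb of it. Nearest was the tile at chr7:27181001-27182000, 0.884 kb from the site, which overlaps coding, UTR and intronic bases of HOXA5 and HOXA3. It had 14 of 157 methylated reads in Neg (8.92%) against 82 of 100 (82.0%). With chr7:27179001-27180000 and chr7:27186001-27187000, at 2.884 and 3.098 kb, it formed a group of 3 in 8 kb, in which no members touched each other. The tile at 27179001 was at 3.67% in Neg against 95.9% in dCas9+3A+HOXA5, and the tile at 27186001, which reaches into HOXA6, at 5.26% and 81.5%. Over all CpGs that Neg covered, the latter was at 12.8% in Neg. The low tiles between them, the one with the guide site included, were at 30.6 to 73.6% in dCas9+3A+HOXA5.

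The tile at chr7:27199001-27200000, 1446 bases from the start of HOXA7 and outside any gene, was at 2.97% in Neg (202 reads) against 88.5% in dCas9+3A+HOXA5 (130 reads). A second group of 3 spanned 13 kb, from next to the start of HOXA9 to beyond that of HOXA11, which are posterior HOX genes of limb and trunk. Its tile 202 bases from the HOXA9 start, chr7:27215001-27216000, had 0 of 84 methylated reads in Neg and 53 of 56 in dCas9+3A+HOXA5. The tile at chr7:27218001-27219000, in an intron of HOXA10, had 0 of 38 and 70 of 75. The tile at chr7:27227001-27228000, 2150 bases upstream of HOXA11 and within the antisense RNA gene HOXA11-AS, had 9 of 200 (4.50%) and 160 of 181 (88.4%), the most reads of any member in its shallower library.

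**Figure D2:**
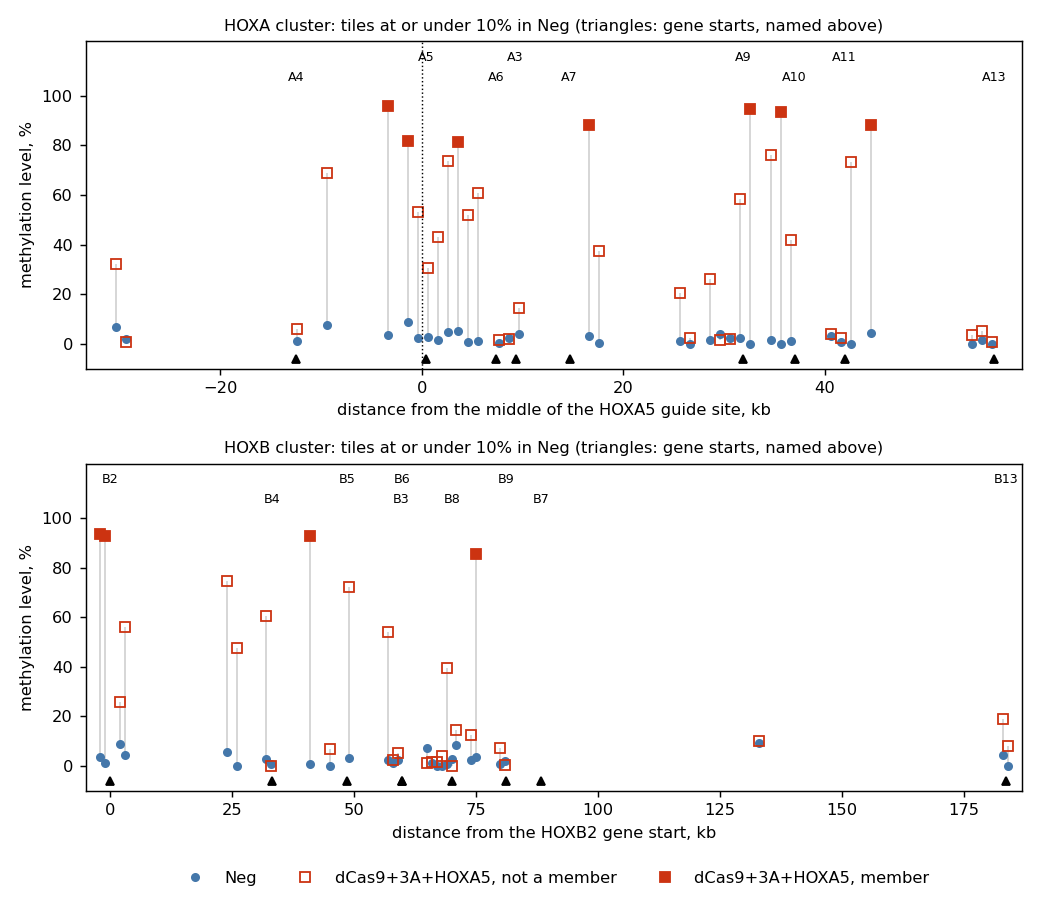
Methylation level (%) of the tiles reported here at or under 10% in Neg across the HOXA and HOXB clusters, against the distance in kb from the guide site (HOXA, dotted line) or from the HOXB2 gene start (HOXB), with filled squares for members. Members stand among tiles at intermediate levels and tiles that stayed low. Over the whole clusters, 14 of 39 low tiles in HOXA and 12 of 28 in HOXB were at or under 10% in dCas9+3A+HOXA5. Over all 4 HOX clusters, the 22 low tiles that held a protein-coding gene start had a median of 3.65% in dCas9+3A+HOXA5. Single ones among them were far higher, such as those at HOXB5 (72.3%), HOXC9 (70.5%), HOXA9 (58.4%) and HOXA5 (30.6%).

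The other 8 HOX members were on other chromosomes than the guide. HOXB2, a gene of hindbrain patterning, carried 2 adjacent ones. The tile at chr17:46620001-46621000, with coding and UTR bases of HOXB2, had 10 of 266 methylated reads in Neg (3.76%) and 165 of 176 in dCas9+3A+HOXA5 (93.8%). It was also the member with the most CpGs, 70 of 71 being covered. The next tile, 471 bases from the HOXB2 start, had 2 of 148 (1.35%) and 132 of 142 (93.0%). An intronic tile of HOXB3 at chr17:46663001-46664000 was at 0.922% and 92.6%, and one of HOXB7 at chr17:46697001-46698000 at 3.74% and 85.7%.

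In HOXC, the tile at chr12:54359001-54360000 lay in HOTAIR, a long noncoding RNA gene of the cluster, and was at 8.33% in Neg against 91.1% in dCas9+3A+HOXA5. The tile at chr12:54403001-54404000, 232 bases from the HOXC8 start and covering part of its coding sequence, had 3 of 115 methylated reads (2.61%) and 72 of 80. In HOXD, an intronic tile of HOXD11 at chr2:176970001-176971000 had 8 of 105 methylated reads in Neg (7.62%) and 25 of 25 in dCas9+3A+HOXA5. That value rests on 1.09 reads per CpG over 23 CpGs, the fewest of any member, and the tiles on its sides were at 13.1% and 12.8% in dCas9+3A+HOXA5. An intronic tile of HOXD3 at chr2:177023001-177024000 had 0 of 63 and 28 of 33 (84.8%).

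Outside the HOX clusters 8 members lay within 10 kb of the start of another gene from the lists of developmental regulators. Together with the HOX members these were 25 of 68 (36.8%), against 2.73% of the other low tiles. Under other settings of the rule the share of members was 17.5 to 68.8%. Of 211 low tiles near other homeobox genes 3 were members, of 228 near other developmental transcription factors 5, of 104 near developmental signalling genes 0 and of 261 near housekeeping genes 0. The share of members near non-HOX regulators was therefore 1.48% of such low tiles, against 0.198% of those near no list. These lists were drawn up with earlier results of these data known.

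Of these, the tile 258 bases from the start of BARX2, a homeobox gene of muscle and epithelium, had 11 of 129 methylated reads in Neg (8.53%) and 78 of 94 in dCas9+3A+HOXA5 (83.0%). The tile 584 bases from MEIS1, which encodes a partner of HOX proteins, had only 11 covered CpGs and was at 9.09% (22 reads) and 81.2% (32 reads). Its interval in dCas9+3A+HOXA5 had a lower bound of 64.7%.

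A tile near ZIC2, a zinc finger gene of the forebrain, was at 7.89% in Neg against 98.7% in dCas9+3A+HOXA5. A tile near FOXB1, a forkhead gene, was at 3.90% and 90.2%. Tiles near GLIS1 (8.33% and 93.8%) and SOX5 (7.32% and 82.1%) had 11 covered CpGs each. When all Neg CpGs were counted, they were at 18.9% and 16.7% in Neg.

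The other 43 members lay further from those genes, 22 of them mostly in introns of protein-coding genes and 11 in no annotated gene. Their medians were 7.14% in Neg, where the HOX members had 3.30%, and 89.7% in dCas9+3A+HOXA5, where the HOX members had 91.1%. Their median of 13 covered CpGs compared with 25 in the HOX members, and 10 of the 13 members above 10% over all Neg CpGs were among them. An adjacent pair lay 18073 and 19073 bases from the start of NR2F1, an orphan nuclear receptor of the nervous system. There chr5:92937001-92938000 had 3 of 46 methylated reads (6.52%) in Neg and 65 of 66 in dCas9+3A+HOXA5 (98.5%). The tile at chr5:92938001-92939000 had 0 of 50 and 30 of 31 (96.8%), the largest difference of all, at 1.24 reads per CpG in dCas9+3A+HOXA5. The related NR2F2 had a member 19834 bases from its start, chr15:96889001-96890000, with 10 of 164 (6.10%) and 175 of 194 (90.2%).

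Further members with large differences or many reads were spread over other genes. The tile at chr7:70096001-70097000, in an intron of AUTS2, a gene of neuronal development, had 12 of 141 methylated reads in Neg (8.51%) and 149 of 177 in dCas9+3A+HOXA5 (84.2%). In an intron of TTC28, chr22:28838001-28839000 had 5 of 139 methylated reads and 82 of 97 (84.5%), and the next tile had 1 of 50 and 27 of 29 (93.1%). The tile at chr22:46465001-46466000, within the host gene of the let-7b microRNA, MIRLET7BHG, was at 5.15% and 98.0%. The intergenic tile nearest ATXN1 was at 4.17% and 98.5%, an intronic tile of NFIB, a nuclear factor gene of lung and brain, at 7.14% and 100%, and one of CLDN14, a tight junction gene, at 0% and 95.1%. The CLDN14 tile was at 17.9% in Neg when all Neg CpGs were counted.

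Apart from those closest to the limits of the rule, further members were single tiles and a pair in LRMDA. They were nearest the starts of POU3F3, CNTNAP5, MECOM, FAM184B, CDH6, MRPS30 (chr5:44665001-44666000), RGMB, ZNF608, TAB2, BMPER, EEPD1, CNPY1, ACO1, RP11-195B21.3, PBX3, LRMDA, FRMD8, APOLD1, KDM2B, KLF12, CDH7 and CHODL. The distances to these starts ran from 73 (KDM2B) to 1130601 bases (ACO1), with CDH6 at 994793 and RP11-195B21.3 at 528208. The tiles nearest TAB2, BMPER and APOLD1 lay within other genes, UST, BBS9 and CDKN1B. Levels of the listed tiles ran from 0 to 9.52% in Neg and from 82.1 to 98.0% in dCas9+3A+HOXA5. Over all Neg CpGs, 5 of them were above 10% in Neg: the tiles nearest ACO1 (40.4%), EEPD1 (18.2%), CDH7 (15.9%), CDH6 (14.7%) and CHODL (11.9%). One of them overlapped NEAT1, a nuclear long noncoding RNA, at 8.79% and 84.7%, and one lay 73 bases from KDM2B, a gene of a CpG island binding protein, at 8.22% and 89.9%.

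The members closest to the limits were as follows. Just inside 80% were tiles nearest JAG1 (32 of 40 reads), MRPS30 (80.6%), CLMP (80.6%) and NFE2L3 (80.9%). Their levels in Neg were 5.26, 0, 9.68 and 5.71%, and they lay 427354, 437952, 5956 and 292818 bases from those starts. Just outside were tiles nearest TMPRSS15 (79.2%), MECOM (78.8%), ZNF442 (78.4%), SLC35B4 (78.3%) and SPSB4 (77.9%). Just inside 10% in Neg were tiles nearest NCAM2 (10.0 and 9.68%), PPP2R1B (10.0%), PRKD3 (9.72%) and CLMP (9.68%). In dCas9+3A+HOXA5 the 2 tiles in NCAM2, a neural adhesion molecule gene, were at 98.0 and 100%, that near PPP2R1B at 86.4%, and that in PRKD3 at 100% with 23 reads. Over all Neg CpGs the tiles of PRKD3 (12.5%), CLMP (22.5%) and PPP2R1B (10.8%) and the second of NCAM2 (23.3%) were above the limit. Just outside were tiles nearest PDE10A (10.5%), MECOM (10.6%), HOXB4 (10.7%), FOXC1 (10.9%) and UQCRFS1 (11.1%). Between 10 and 20% in Neg, 129 further tiles were at or above 80% in dCas9+3A+HOXA5, so the limit in Neg left out more tiles than it kept.

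Members were scattered over 19 of the 22 autosomes, with none on chromosomes 8, 16 and 19, although chromosome 19 had 1601 low tiles. Chromosome 7 held 14 of its 1397 low tiles (1.002%) and chromosome 5 held 8 of 1261 (0.634%), while the highest share was 4 of 280 on chromosome 21 (1.43%). In all 54 members (79.4%) were on other chromosomes than the guide. Chromosome 7, which holds the guide, had 20.6% of the members but 6.18% of the low tiles, and 5 of its 14 members lay outside HOXA. Chained by gaps of at most 10 kb, they fell into 59 groups, 52 of a single tile, 5 of 2 tiles and 2 of 3. Thus 16 members had another within 10 kb, 10 of them in HOX clusters and 6 outside (the pairs at NR2F1, LRMDA and TTC28). That share, 23.5%, was 10.5% with 2-kb tiles and 42.0% with 500-base tiles. Of the other low tiles, which were far more numerous, 65.3% had another such tile within 10 kb. Another member within 100 kb was found for 25.

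Members held fewer CpGs than other unmethylated tiles and lay away from protein-coding gene starts. Their medians of covered CpGs (15 against 32) and of reads in dCas9+3A+HOXA5 (46 against 82) were also lower. Whether fewer reads made the limits of the rule easier to reach was not tested. Members had a median of 23 reference CpGs per kb against 56, a GC share of 47.9% against 57.5%, and a ratio of observed to expected CpGs of 0.462 against 0.702. Only 3 of 68 met a GC share of at least 55% together with a ratio of at least 0.65, which 46.5% of the other low tiles met. No member held the start of a protein-coding gene as annotated for the gene, which 34.1% of the others did, and 7 held the start of some isoform of one (10.3% against 54.1%). For long noncoding RNA genes the difference was smaller, with a start in 5 members (7.35%) against 11.4% of the others. The median distance to a protein-coding gene start was 19454 bases in members and 432.5 bases in the others, and 27 members were more than 50 kb away (39.7% against 20.4%). These medians pool unlike places. HOX members had medians of 43 reference CpGs and 1471 bases, and those near other developmental regulators, chosen by distance, 41.5 and 3180. The members elsewhere had 17 reference CpGs and 143049 bases. By bases, 49.5% of the members' length was intron of protein-coding genes, 23.5% intergenic, 3.42% coding and 2.94% UTR, against 42.6%, 24.6%, 6.68% and 15.1% in the others.

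CpG number and place could be read separately. Outside the HOX clusters members made up 0.758% of low tiles with 10 to 19 reference CpGs, 0.380% with 20 to 39, 0.201% with 40 to 59 and 0 of 10366 with 60 or more. In the HOX clusters the shares were 1 of 8, 5 of 23, 10 of 36 (27.8%) and 1 of 37, the last being the HOXB2 tile. The HOX share was thus above the rest in each class, but the first and last classes rest on 1 HOX member each. That of the first class is chr7:27186001-27187000, 3.098 kb from the guide. The 4 clusters are pooled here, and 9 of their 17 members are in HOXA, which holds the guide. Tiles with 60 or more CpGs were rarely members inside or outside the HOX clusters. By distance, 0 of 22 low HOX tiles and 0 of 7657 others that held a protein-coding gene start were members. Between 1 and 10 kb from a start it was 13 of 49 in HOX clusters (26.5%) and 11 of 2491 elsewhere (0.442%).

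**Figure D3:**
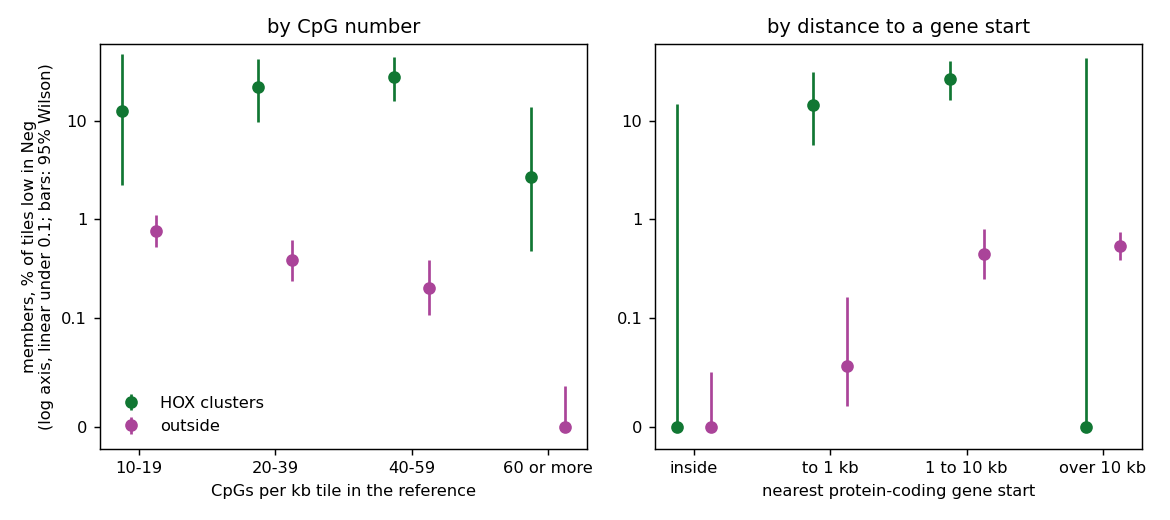
Members as a percentage of the tiles at or under 10% in Neg, by the number of CpGs per tile in the reference (left) and by the distance to the nearest protein-coding gene start (right), with 95% Wilson intervals as bars, on a log axis that is linear under 0.1. HOX tiles are above the others in every class but the outermost distance, where 0 of 5 were members, and the class with a gene start inside, which has none in either group. HOX tiles pool all 4 clusters, and 9 of their 17 members are in HOXA, which holds the guide.

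Short sequence motifs were counted on both strands. The GC box GGGCGG was found in 41.2% of members and 73.3% of other low tiles, and the homeodomain core TAATTA in 22.1% and 14.5%. The CCAAT box was found in 69.1% and 64.0%, the E-box CACGTG in 11.8% and 18.5%, the ETS motif CCGGAAGT in 4.41% and 5.66%, and the NRF1 motif in 0% and 1.53%. The GC share was also lower in the members, as given above.

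The length of the low stretch in Neg was described for each member. Counting adjoining tiles at or under 10% in Neg over all its CpGs, 20 members stood alone as runs of 1 kb, 18 lay in runs of 2 kb, and 17 in runs of 3 to 8 kb, while the 13 above 10% had no run (19.1% of members against 7.07% of the other low tiles). Runs of 1 kb held 29.4% of members against 31.5% of the others, runs of at least 3 kb 25% against 26.6%, and runs of at least 5 kb 13.2% against 6.07%. Of the 23 runs that held a member and had at least 2 measured tiles, 16 held a tile at or under 20% in dCas9+3A+HOXA5. Every measured tile reached 50% in 3, which consisted of members alone, so that no run with a measured tile outside the members did. At FOXB1, for example, the run of 6 kb ranged from 2.899 to 90.2%.

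The neighbouring tiles were compared as well. Outside the HOX clusters the median level in Neg was 7.22% in the member itself, 20.2% on the left and 18.5% on the right at 1 kb, and 42 to 61.2% at 2 to 5 kb, without a steady order over those distances. In dCas9+3A+HOXA5 it was 89.7% in the member and 85.4 and 75% at 1 kb. The levels at the member itself are those that the rule set, and the members of 5 adjacent pairs also stand among the neighbours at 1 kb. In the HOX clusters the Neg medians were 2.88%, 4.49 and 12.7%, and those in dCas9+3A+HOXA5 93.1%, 71.9 and 88.0%. The other low tiles had medians of 2.51% in Neg against 2.73% in dCas9+3A+HOXA5 in the tile itself. At 1 kb on the left they had 17.5% and 19.4%, and on the right 16.7% and 19.05%.

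**Figure D4:**
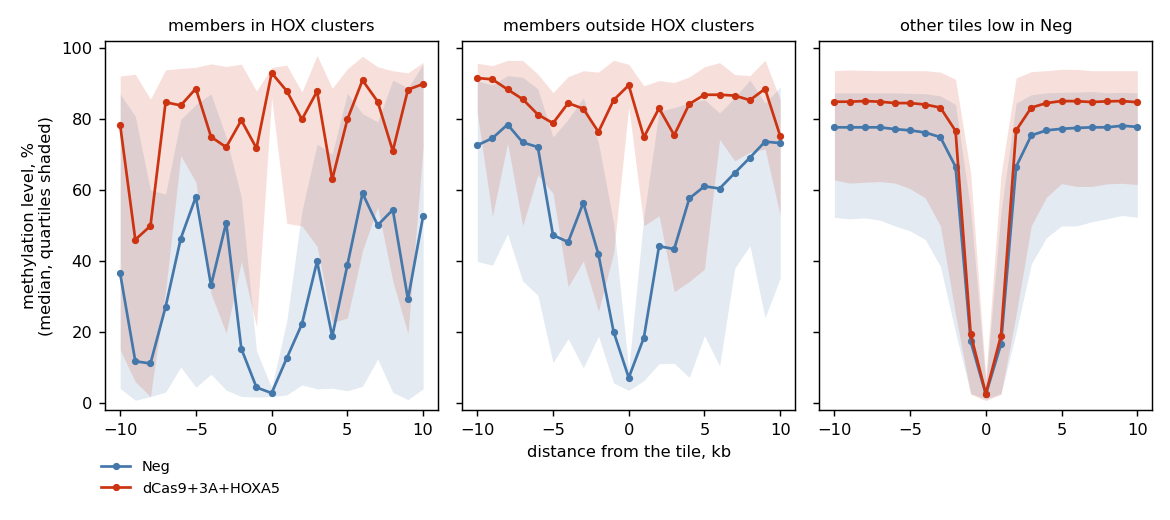
Median methylation level (%) with quartiles shaded, by distance in kb from the 17 members in HOX clusters, the 51 outside them and the other tiles low in Neg, over tiles with at least 10 reads and with all CpGs of each library. The levels at 0 kb follow from the rule. At 1 kb the members' medians are 4.49 to 20.2% in Neg and 71.9 to 88.0% in dCas9+3A+HOXA5. Members of 5 adjacent pairs are among these neighbours, and the tiles with enough reads differ between the libraries.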

How the data were processed

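HEK293T whole-genome bisulfite libraries were grouped by sample title, 1 library each for Neg and dCas9+3A+HOXA5. The authors trimmed and aligned the reads to hg19 with BSMAP (2.90 in the submitters' processing notes) and called CpGs with its methylation ratio module. No source used here states the handling of duplicate and multiply matching reads. The deposited counts, per the file headers, are reads with C and reads with C or T, both strands combined. The authors' estimated count corrects the latter for C-to-T variants, and the deposited fraction divides C by it. Tile levels were summed C over summed C or T counts of CpGs with at least 1 read in both files. The methods state a minimum of 5 reads, but the deposited files list CpGs with fewer, and 5 reads was tried as an alternative. The fraction was not used for levels.

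Members, lists and alternatives were chosen with earlier results of these data known. Genes came from GENCODE 44 on GRCh37, and a distance is from the tile edge to the nearest protein-coding gene start. Variant evidence was a share of G under 0.8 of at least 3 opposite-strand G or A reads. Tiles were called by the nearest protein-coding gene start or by a gene they lie in. Named were those in groups of 3 or more, within 50 kb of the guide or in HOX clusters, the 10 deepest, the 10 with the largest difference, the 5 on each side of each limit, and those within 1 kb of a listed gene. Other named tiles were chosen after their values were seen. Some members that this rule names are counted but not reported here. The lists held 39 HOX, 143 other homeobox, 164 other transcription factor, 89 signalling and 120 housekeeping genes, of which 39, 138, 161, 89 and 114 were found on the autosomes. Scripts ran in Python 3.11.15 with numpy 2.4.6 and pandas 2.3.3. The code of the rule was run on simulated data that drew each CpG independently. Such data cannot show how often reads that share a fragment give members. Intervals are 95% Wilson intervals and cover counting error only, as reads on 1 fragment are not independent.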

Additional observations from a re-analysis of the deposited data

How the results depend on the processing

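The number of libraries and the depth are both limits. Each group is 1 library, with no further library to leave out, and a member rests on a median of 2.91 reads per CpG in dCas9+3A+HOXA5. No paired analysis was possible because the labels give no pairs and no result comes from a test. A setting is named here where the value left the interval of the reported one or the count moved by over 1.5 times.

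The 68 members became 130 with 5 or more CpGs per tile, 28 with 20 or more CpGs, 34 with 40 or more reads, 19 with CpGs of 5 or more reads (5 or more per tile), 16 with at most 5% and at least 90%, 349 with at most 20% and at least 70%, and 112 with 500-base tiles. Of the 19 tiles with the depth minimum that the study states, only 8 overlapped the 68. Their share of the tiles low in Neg was 0.442% with 5 or more CpGs, 0.177% with 20 or more, 0.197% with 40 or more reads, 0.0943% under the stricter levels and 1.09% under the looser ones. The percentage of members with another within 10 kb, 23.5%, was 35.5% for means over CpGs, 10.5% with CpGs of 5 or more reads, 12.3% with 5 or more CpGs, 42.0% with 500-base tiles, 10.5% with 2-kb tiles and 36.8% within 100 kb. The percentage near a developmental regulator, 36.8%, was 19.2% with 5 or more CpGs, 64.3% with 20 or more, 52.9% with 40 or more reads, 68.8% under the stricter levels, 17.5% under the looser ones, 22.8% with 2-kb tiles and 19.1% for gene starts within 2 kb. The cause of these shifts was not tested, apart from the tiles and CpGs each setting leaves out. Shifting the tiles by 500 bases gave 82 members, which overlapped 29 of the 68, so the identity of members moved more than their number. The estimated count as denominator gave 70, and leaving out CpGs with variant evidence gave 69. An alternative chosen after seeing the data, at least 2 reads per CpG in both libraries, gave 57 members. In HOX clusters lay 17 of the 68, 8 of 57 with 2-kb tiles and 5 of 19 with CpGs of 5 or more reads. The count was 8 of 16 under the stricter levels, 28 of 112 with 500-base tiles and 39 of 349 under the looser levels. With 5 or more CpGs it was 17 of 130, with 20 or more 13 of 28, and with 40 or more reads 13 of 34. With at least 2 reads per CpG it was 15 of 57, and under the other settings 17 to 20 of 62 to 82.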
